A study of Mus musculus with 17 samples.

Results

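The 4 Id genes (Id1, Id2, Id3 and Id4), the inhibitory Smads (Smad6 and Smad7), Smad9 and the type I receptor Bmpr1a were examined in sorted mouse β cells. These 8 genes were chosen by their symbols, and their transcripts were summed per gene among the 55357 genes of the annotation used for counting. All 8 passed the filter on low counts, which left 22784 genes for testing. The study asked how pancreatic β cells adapt their transcripts to sustained high glucose and whether the RNA-binding protein PCBP2 takes part in this. Per the paper's methods, islets of male mice first recovered for some days in medium with a glucose concentration between the 2 tested. They were then cultured for 72 hours in low glucose (2.8 mM) or high glucose (16.7 mM), dispersed and sorted for the tdTomato reporter. Control cells, which the labels call WT, came from mice with the reporter and a RIP-Cre driver, and gave 3 samples in low and 4 in high glucose. Pcbp2 βKO cells carried in addition 2 floxed Pcbp2 alleles (RIPCre+;Pcbp2Fl/Fl;Tdtomato), and gave 5 samples in each condition. RIP-Cre is driven by the rat insulin promoter, so the deletion and the reporter both depended on its activity, and the sort enriched for cells that had undergone recombination. The age of these mice and the number of animals behind a sample were not given in the sources used here, so p values measure the spread between the samples, which may in part be technical.

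Bone morphogenetic proteins (BMPs) bind a complex of type I and type II receptor kinases, and BMPR1A is one of the type I receptors. The activated type I receptor phosphorylates SMAD1, SMAD5 and SMAD9 (also called SMAD8), which join SMAD4 and enter the nucleus. Id genes are among the best known direct targets of these complexes, and the ID proteins lack a DNA-binding domain and hold basic helix-loop-helix partners such as the E proteins in inactive dimers. SMAD6 and SMAD7 inhibit the pathway and are themselves induced by it, so that the members form a feedback loop. In β cells, BMPR1A is known for a role in glucose-stimulated insulin secretion, and Id1 and Id3 are known to respond to glucose and to growth factor signals in islets.

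Total estimated counts per sample lay between 47385513 and 82419400. Expression is given below as CPM, in which the counts of a gene are set against the total of its library after scaling by the TMM method. Changes were called by edgeR's quasi-likelihood test where the fold change exceeded 1.5 and the adjusted p was under 0.05, and each fold change is given on the log2 scale with its standard error (SE). Pcbp2 itself was lower in every Pcbp2 βKO sample than in every control sample at the same glucose concentration, with a log2 fold change of -1.84 in low and -2.40 in high glucose (edgeR adjusted p = 3.61e-06 and 7.56e-08). Summed markers of endothelial and stellate cells, both of which can express Id genes, stayed between 0.555 and 1.73 CPM and between 0.295 and 1.25 CPM. No marker of these lists was at 0 in every sample. Alpha cell markers summed to 638 to 9196 CPM in low and 175 to 1463 CPM in high glucose, against 67330 to 526100 CPM for the β cell markers. In low glucose, control and Pcbp2 βKO samples differed. Alpha cell sums were 638 to 2566 against 1474 to 9196 CPM, and delta cell sums 250.5 to 390 against 480 to 1316 CPM. PP cell sums were 797 to 835 against 992 to 5112 CPM, and β cell sums 119000 to 123200 against 67330 to 97380 CPM. Macrophage sums, mostly C1qa, were 77.7 to 98.3 against 23.5 to 32.9 CPM. The β cell sums were mostly Ins1, Ins2 and Iapp, which with Slc2a2, Pdx1, Mafa and G6pc2 had lower means in Pcbp2 βKO samples. Means of Nkx6-1, Ucn3 and Slc30a8 were not lower, at 15.9 against 16.0, 593.5 against 596.5 and 580.3 against 649.5 CPM. The paper reports reduced Ins1 in Pcbp2-null β cells in low glucose. In these bulk samples, fewer cells of a type and less RNA per cell cannot be told apart. Of the 9 samples in high glucose, 3 stood apart on the first principal component, with scores of 9.9, 21.4 and 33.2 against 90.9 to 99.1 in the other 6. These libraries were control replicate 4 and Pcbp2 βKO replicates 4 and 5, and results that rest on them are given with and without them. The low-glucose samples scored between -105.5 and -42.4, so this component separated the glucose concentrations. Leaving out these libraries can therefore favour calls with glucose.

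Per unit of transcript length, as TPM, Id2 and Id3 were the most abundant members. In control cells in low glucose, mean TPM ± SD (n = 3) was 78.0 ± 2.55 for Id2, 29.6 ± 4.69 for Id3, 3.56 ± 0.228 for Bmpr1a and 1.06 ± 0.0967 for Id1, and none of these 4 ranges overlapped its neighbour. Smad7, Id4 and Smad9 followed at 0.447 ± 0.267, 0.322 ± 0.207 and 0.258 ± 0.0862 TPM, and their ranges overlapped. Smad6 was close to the limit of detection, at 0.0223 ± 0.0266 TPM. In control cells in high glucose the ranges of Id2 (29.3 to 81.4 TPM, n = 4) and Id3 (22.9 to 42.7 TPM) overlapped, and Id1 (3.21 ± 1.66 TPM) had a higher mean than Bmpr1a (1.84 ± 0.335 TPM), with ranges that overlapped too.

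**Figure D1:**
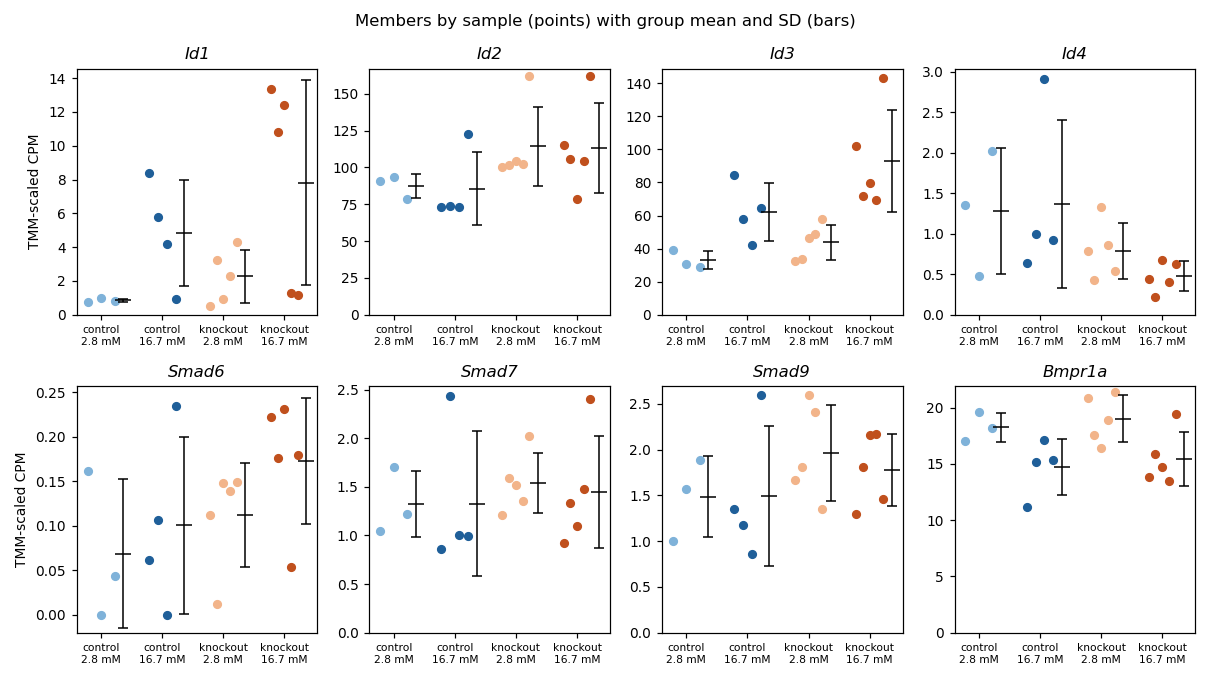
TMM-scaled CPM (linear vertical axes, one panel per gene) of the 8 members in the 17 samples, with each point 1 sample and each bar the group mean ± SD (n = 3, 4, 5 and 5 from left to right). Id3 shows no overlap between low and high glucose in either genotype, and Id1 is above 4 CPM in 6 of the 9 high-glucose samples and near 1 CPM in the other 3.

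Id3 was the member that rose with glucose in both genotypes. On GRCm39, the gene spans positions 135870808 to 135873066 of chromosome 4 (forward strand). Control samples were at 39.1, 30.9 and 29.0 CPM in low glucose, and at 84.7, 58.1, 42.4 and 64.5 CPM in high glucose. The lowest high-glucose sample was thus above the highest low-glucose sample. Id3 thus had a log2 fold change of 0.92 (SE 0.27), a 1.89-fold rise with a 95% interval from 1.27-fold to 2.81-fold (edgeR adjusted p = 0.0279). The Pcbp2 βKO samples had Id3 at 32.8, 33.5, 46.4, 48.8 and 57.9 CPM in low glucose and at 102, 71.8, 79.6, 69.1 and 143 CPM in high glucose, again without overlap. There the log2 fold change was 1.09 (SE 0.22), or 2.12-fold (edgeR adjusted p = 0.00122).

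Id3 was the only one of the 8 members called in either glucose comparison. Over all tested genes, 13.8% were called in control cells and 7.15% were called higher, against 1 of 8 members called, higher. Of all genes, 23.8% were called in Pcbp2 βKO cells and 13.4% called higher, against the same 1 of 8. Groups did not overlap for 24.1% of all genes in the control comparison and for 21.6% in the Pcbp2 βKO comparison, and for 1 of 8 members in each. With 1 of 8, the share of members called was close to the background. The median log2 fold change of the members was 0.05 in control and -0.05 in Pcbp2 βKO cells, against 0.04 and 0.01 over all genes.

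The call for Id3 in control cells depended on single samples. Its adjusted p by edgeR was 0.112 without replicate 2 in low glucose, 0.0955 without replicate 3 in low glucose and 0.0867 without replicate 1 in high glucose, with log2 fold changes of 0.87, 0.83 and 0.74. With the 3 apart libraries left out it was 0.89 in control and 0.91 in Pcbp2 βKO cells (edgeR adjusted p = 0.0195 and 0.00509). For Pcbp2 βKO cells it stayed between 0.88 and 1.21 when each sample of these groups was left out, and it was called each time.

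The glucose response of Id3 was also relative to the scaling of the libraries. In high glucose the summed β cell markers were higher in every sample than in any low-glucose sample. With TMM, 1629 genes were called higher and 1524 lower in control cells, and 3056 and 2375 in Pcbp2 βKO cells. On total counts alone the split was 782 to 4055 and 1482 to 6369, and on the log2(TPM + 0.1) scale it was 442 to 8460 and 656 to 11793. Without TMM factors, on total counts alone, the median gene moved by -0.35 in control and -0.47 in Pcbp2 βKO cells, and Id3 had log2 fold changes of 0.53 (edgeR adjusted p = 0.195) and 0.61 (adjusted p = 0.0424). On the TPM scale the median gene moved by -0.56 and -0.71, and Id3 itself changed by 0.07 and 0.04 on the log2(TPM + 0.1) scale (limma adjusted p = 0.858 and 0.892). Relative to the median gene, the Id3 difference on that scale was 0.62 and 0.75. The TPM of Id3 was 29.6 ± 4.69 in low and 31.7 ± 8.54 in high glucose in control cells, and 43.3 ± 10.7 and 45.0 ± 15.5 in Pcbp2 βKO cells (SD, n = 5 each). Thus the direction relative to the other genes was the same on all 3 scales, while the share of Id3 in the whole transcript pool barely moved.

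**Figure D2:**
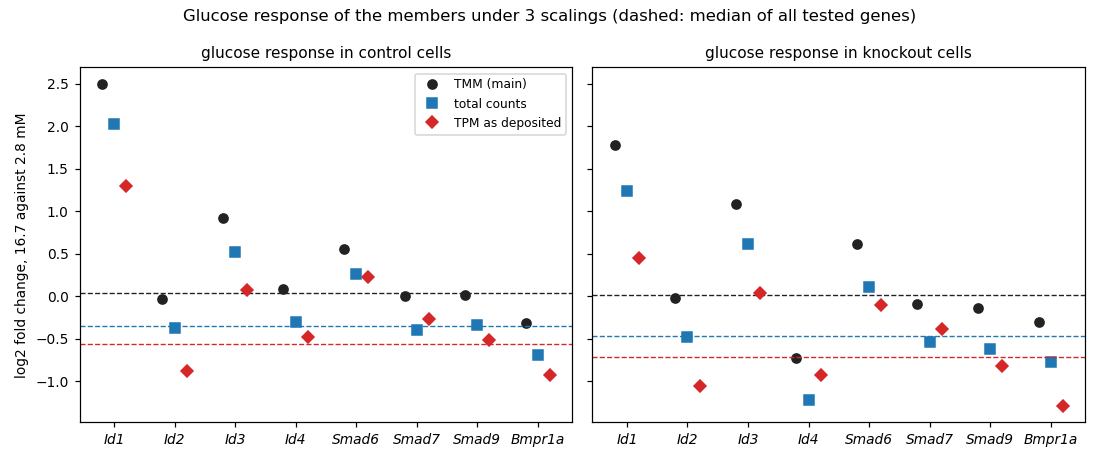
Log2 fold change of each member between 16.7 and 2.8 mM glucose (vertical axis) in control cells (left) and Pcbp2 βKO cells (right) under 3 scalings, with the median of all tested genes under each scaling as a dashed line of the same colour. Id1 and Id3 lie above the median line under every scaling, and Bmpr1a lies below it.

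Id1 was more variable than Id3. It encodes the founding member of the family and lies on the forward strand of chromosome 2, from 152566218 to 152579544. This span is from the annotation used for positions, while the counted Id1 transcripts are 934 and 1160 bases long. In control cells in low glucose Id1 was at 0.764, 0.967 and 0.821 CPM. In high glucose it was at 8.38, 5.79 and 4.22 CPM in replicates 1 to 3 and at 0.909 CPM in replicate 4. In high glucose 3 of the 4 samples were thus several times above the low-glucose range and 1 was within it. This gave a log2 fold change of 2.50 (SE 0.90), and the change was not called (edgeR adjusted p = 0.0675).

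The Pcbp2 βKO samples had Id1 at 0.491, 3.25, 0.954, 2.31 and 4.33 CPM in low glucose. In high glucose it was at 13.4, 10.8 and 12.4 CPM in replicates 1 to 3 and at 1.30 and 1.17 CPM in replicates 4 and 5. Its log2 fold change was 1.78 (SE 0.70), which was not called either (edgeR adjusted p = 0.0619). The 3 high-glucose samples near 1 CPM were the 3 libraries that stood apart. Without them, Id1 was called higher with glucose, with a log2 fold change of 2.83 in control cells and 2.39 in Pcbp2 βKO cells (edgeR adjusted p = 0.00214 and 0.000997). The score that set these libraries apart itself follows glucose, so this call is not an independent test of the Id1 response. Deviations of the same-numbered control samples of the 2 glucose concentrations correlated weakly, at 0.123 to 0.258. With the replicate number as a block over all 17 samples, Id1 was called in control cells (log2 fold change 2.63, edgeR adjusted p = 0.0417). That fit also blocked the Pcbp2 βKO samples by number, a pairing that was not shown. With the block in control samples alone, an unplanned fit, the log2 fold change was 2.80 for Id1 and 0.87 for Id3 (edgeR adjusted p = 2.67e-05 and 0.000659). Control replicate 4 in high glucose, where Id1 was low, has no low-glucose partner and so does not enter that glucose estimate. The Id1 call also appeared when some single samples were left out. Without control replicate 4 in high glucose the log2 fold change in control cells was 2.86 (edgeR adjusted p = 0.0252). Without any other single control sample Id1 was not called there (edgeR adjusted p from 0.0980 to 0.183). For Pcbp2 βKO cells the log2 fold change was 2.06 without replicate 4 or 5 in high glucose (adjusted p = 0.0257 and 0.0235) and 2.16 without replicate 5 in low glucose (adjusted p = 0.0419). Without any other single Pcbp2 βKO sample Id1 was not called in these cells. On other scales, with all 17 samples, Id1 was not called either. On total counts it changed by 2.03 in control and 1.24 in Pcbp2 βKO cells (edgeR adjusted p = 0.089 and 0.1415). On the log2(TPM + 0.1) scale it changed by 1.30 and 0.445 (limma adjusted p = 0.2297 and 0.5872). Relative to the median gene on that scale the differences were 1.85 and 1.16. In all 17 samples Id1 rested on 44 to 806 estimated counts, so counting alone does not limit these values.

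The samples with low Id1 in high glucose also differed in other measures. Their summed alpha cell markers were 1463, 966 and 1322 CPM, against 175 to 450 CPM in the other 6 high-glucose samples. Their summed proliferation markers were 8.18, 49.4 and 2.18 CPM, against 9.64 to 271 CPM. In low glucose the order was opposite. The 3 Pcbp2 βKO samples with Id1 at 2.31 to 4.33 CPM had alpha cell sums of 5326 to 9196 CPM, and the 2 with Id1 below 1 CPM had sums of 1474 and 1985 CPM. The part of these differences in the Id1 values was not tested.

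**Figure D3:**
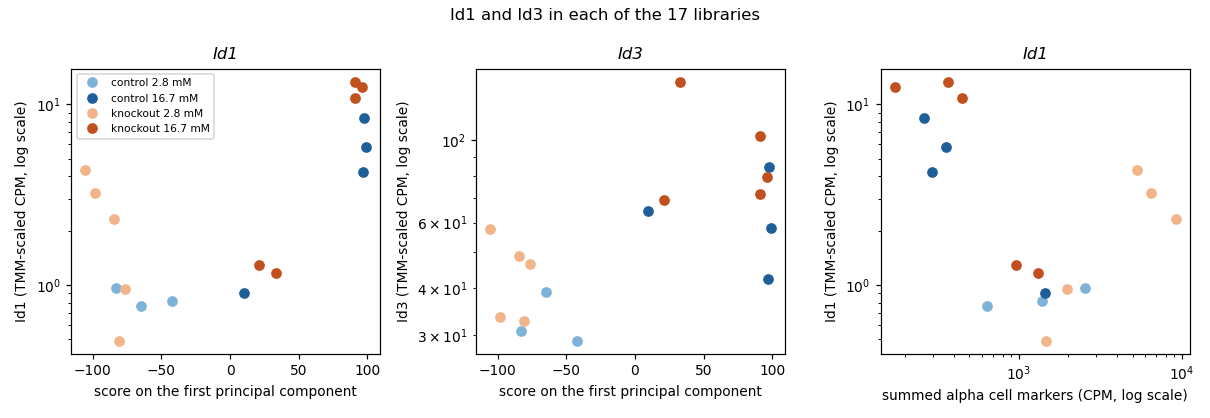
CPM of Id1 (left and right) and Id3 (middle) on log axes in the 17 libraries, against the score on the first principal component or against the summed alpha cell markers in CPM (log axis), coloured by group. The 3 high-glucose libraries with scores of 9.9 to 33.2 have Id1 at 0.909 to 1.30 CPM, while their Id3 lies at 64.5 to 143 CPM, within or above the range of the other high-glucose libraries.

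Id2 was expressed at a steady level across glucose concentrations on the CPM scale. It lies on the reverse strand of chromosome 12, from 25143798 to 25147282. In control cells it was at 90.5, 93.5 and 78.4 CPM in low glucose and at 72.8, 73.5, 73.4 and 123 CPM in high glucose, the last in the library that stood apart. The log2 fold change was -0.03 (95% interval -0.52 to 0.46, edgeR adjusted p = 0.955). Pcbp2 βKO samples were at 100, 102, 105, 103 and 162 CPM in low glucose and at 115, 105, 78.6, 104 and 162 CPM in high glucose, a log2 fold change of -0.02 (interval -0.42 to 0.39, adjusted p = 0.966). On the TPM scale, Id2 was called lower with glucose in both genotypes, with log2 fold changes of -0.87 and -1.06 (limma adjusted p = 0.0205 and 0.000969). Relative to the median gene on that scale the differences were -0.32 and -0.34.

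Id4 was a low-abundance member, expressed at 0.225 to 2.91 CPM. It lies on the forward strand of chromosome 13, from 48414558 to 48419502. In high glucose it was at 0.634, 0.998, 2.91 and 0.924 CPM in control cells and at 0.445, 0.225, 0.677, 0.402 and 0.630 CPM in Pcbp2 βKO cells. Only the highest Pcbp2 βKO sample exceeded the lowest control sample. The log2 fold change of -1.52 (SE 0.49) was not called by edgeR (adjusted p = 0.163), while DESeq2 called it (adjusted p = 0.0498), as did edgeR with the replicate number as a block, though the numbers were not shown to pair these samples. Without control replicate 3, the sample at 2.91 CPM, it was -0.84 (edgeR adjusted p = 0.635), and without the 3 apart libraries it was -1.75 (adjusted p = 0.210). In low glucose Id4 was at 1.35, 0.477 and 2.02 CPM in control and at 0.793, 0.434, 1.33, 0.867 and 0.539 CPM in Pcbp2 βKO cells, and the ranges overlapped (log2 fold change -0.70, edgeR adjusted p = 0.640).

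The knockout called none of the 8 members at either glucose concentration. Over all genes, 1.71% were called in high and 2.04% in low glucose. For the members, an unadjusted p below 0.05 was reached by Id3 and Id4 in high glucose and by none in low glucose. DESeq2 called 1 member (Id4) in high glucose and 0 in low glucose. The estimate was positive for 7 of 8 members in both conditions, against 51.4% and 53.3% of all genes. This is a description of a few chosen genes, none of them called. Under other settings the sign changed for Smad6, Smad7 and Bmpr1a in high glucose and for Id1, Smad7 and Bmpr1a in low glucose. Id3 had log2 fold changes of 0.58 (95% interval 0.08 to 1.07, edgeR adjusted p = 0.309) in high and 0.41 (interval -0.13 to 0.95, adjusted p = 0.552) in low glucose. Without Pcbp2 βKO replicate 5, the sample at 143 CPM, the difference in high glucose was 0.37 (adjusted p = 0.597).

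Id2 was the one member whose knockout and control samples did not overlap, in low glucose, where all 5 Pcbp2 βKO samples were at 100 CPM or above and the controls at 93.5 CPM or below. This held for 10.9% of all genes in that comparison, and in high glucose for 4.49% of all genes and 0 of 8 members. The log2 fold change of Id2 was 0.39 in low and 0.40 in high glucose (edgeR adjusted p = 0.517 and 0.470). In low glucose the Pcbp2 βKO samples also had more delta and PP cell marker RNA than the controls, without overlap. The part of this in the Id2 and Id3 differences was not tested. Id1 had log2 fold changes of 1.41 (SE 0.84, adjusted p = 0.523) in low and 0.70 (SE 0.73, adjusted p = 0.797) in high glucose by the same test. With Pcbp2 βKO samples 1 and 3 as the only ones kept in low glucose, those with the least alpha cell marker RNA, the estimate for Id1 turned to -0.24 (adjusted p = 0.976).

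The difference of the glucose response between the genotypes was tested directly, and no member was called by edgeR or DESeq2, or reached an unadjusted p below 0.05 by edgeR. Over all genes, 0.00439% were called, which is 1 gene. The interaction was 0.17 for Id3 (95% interval -0.56 to 0.89), -0.72 for Id1 (interval -2.99 to 1.55) and -0.82 for Id4 (interval -2.33 to 0.70). As ratios of the 2 glucose responses, the interval ran from 0.680 to 1.85 for Id3, from 0.126 to 2.93 for Id1 and from 0.199 to 1.62 for Id4, so sizeable differences in either direction are not resolved.

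**Figure D4:**
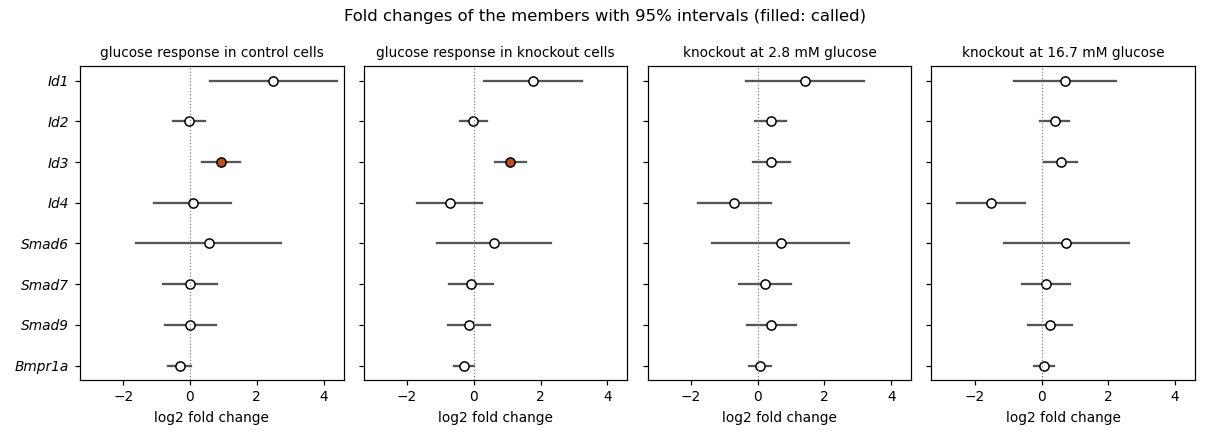
Log2 fold change (horizontal axis) of the 8 members in the 4 two-group comparisons by edgeR, with 95% intervals as lines and called changes as filled points. Id3 is filled in the 2 glucose comparisons, the intervals of Id1 and Smad6 are the widest, and no point is filled in the 2 knockout comparisons.

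The inhibitory Smads were scarce in all 4 groups. Smad6 lies on the reverse strand of chromosome 9, from 63860341 to 63929793, and rested on 0 to 16 estimated counts per sample, or 0 to 0.235 CPM. It was at 0 in 1 control sample of each glucose concentration. Its intervals spanned more than 4 log2 units in control cells (-1.62 to 2.73), so no change could be resolved at this depth. Smad7 was at 0.859 to 2.44 CPM over the 17 samples and rested on 42 to 203 estimated counts. Its log2 fold changes with glucose were 0.00 (95% interval -0.81 to 0.81) in control and -0.09 (interval -0.76 to 0.58) in Pcbp2 βKO cells. In high glucose 1 control sample was at 2.44 CPM and the other 3 at 0.859 to 1.01 CPM.

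Smad9, the BMP-responsive signalling Smad whose transcript is itself regulated, lies on the forward strand of chromosome 3, from 54662963 to 54708680. It was at 1.01 to 1.88 CPM in low-glucose control samples, and the high-glucose ones lay at 0.857 to 2.60 CPM, the highest in the library that stood apart. The Pcbp2 βKO samples lay at 1.35 to 2.60 CPM in low and 1.30 to 2.17 CPM in high glucose, and the groups overlapped in every comparison. The log2 fold change with glucose was 0.01 (SE 0.36) and -0.14 (SE 0.30). The sign of the Smad7 and Smad9 estimates in control cells changed with the scaling of the libraries, as did that of Smad6 in Pcbp2 βKO cells, and no direction is given for these 3 genes.

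Bmpr1a, the receptor at the head of this branch, lies on the reverse strand of chromosome 14, from 34132687 to 34225379. It was at 17.01, 19.6 and 18.2 CPM in control cells in low glucose and at 11.2, 15.1, 17.1 and 15.3 CPM in high glucose. Pcbp2 βKO samples were at 20.8, 17.5, 16.4, 18.9 and 21.4 CPM in low glucose and at 13.8, 15.9, 14.7, 13.5 and 19.4 CPM in high glucose. The high-glucose samples tended to lie lower, and the ranges overlapped in both genotypes. The log2 fold change was -0.31 (SE 0.17) in control and -0.30 (SE 0.14) in Pcbp2 βKO cells, and neither was called (edgeR adjusted p = 0.223 and 0.115). On total counts alone both were called lower (-0.69 and -0.77, edgeR adjusted p = 0.0213 and 0.00157), as on the log2(TPM + 0.1) scale (-0.93 and -1.29, limma adjusted p = 0.00161 and 5.4e-06). Relative to the median gene, Bmpr1a was lower by between 0.30 and 0.57 log2 units across these scales. Between the genotypes it differed by 0.07 in high and 0.06 in low glucose, with intervals from -0.23 to 0.38 and from -0.28 to 0.39.

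Each member was carried mainly by a single annotated transcript. The share of estimated counts, pooled over the 17 samples, in the main transcript was 91.8% for Id1, 94.3% for Id2, 98.2% for Id3, 96.7% for Bmpr1a, 98.1% for Smad6 and 89.7% for Smad7, while Id4 and Smad9 had 1 annotated transcript each. A retained-intron form took 2.76% of Id3 in control cells in low glucose and 1.49% in high glucose on average, and 1.93% and 1.47% in Pcbp2 βKO cells. The second Id1 transcript took 20.3% in control cells in low glucose, where the gene had 66 to 75 counts, and 5.27% to 8.42% in the other 3 groups. Positions and overlaps were read from a GENCODE annotation of GRCm39, and the release behind the counted transcripts is not given in the sources used here. Genes overlap 5 of the 7 members whose position is given, all on the opposite strand. The 3 of these overlapping genes that were among the genes counted averaged 0.0144 CPM (at Id2), 0.050 CPM (at Id4) and 0.0433 CPM (at Bmpr1a), and whether the counting used strand is not given in the sources used here.

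The promoter sequences of 6 of the 8 members (Id2, Id3, Id4, Smad6, Smad9 and Bmpr1a) were read from a RefSeq table on GRCm38.p6, in the 250 bases before the start of each gene. SMAD complexes of the BMP branch are known to bind GC-rich elements such as GGCGCC, which reads the same on both strands. This element was found in 4 of the 6 promoters, those of Id2, Id4, Smad9 and Bmpr1a, and in 9.59% of the 32851 promoters of the table. It is made of G and C only, and the 6 promoters were 62.8% to 78.8% G and C, so these shares are not matched for base composition. It is shown to place the members beside the factor that is known for them, with the element in capitals, 5′ to 3′ on the strand of the gene.
Id2, chr12:25096306-25096335, reverse strand: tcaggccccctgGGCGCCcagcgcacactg
Id4, chr13:48260956-48260985, forward strand: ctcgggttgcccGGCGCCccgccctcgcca
Smad9, chr3:54755519-54755548, forward strand: gcacggccgcctGGCGCCcttccagcgcgg
Bmpr1a, chr14:34502727-34502756, reverse strand: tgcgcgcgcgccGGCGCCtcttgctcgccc

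The promoter of Id3, the member that rose with glucose, held no GGCGCC in these 250 bases. It held the core of the cAMP response element, TGACG, and the Smad-binding element GTCT, both on the opposite strand and overlapping by 1 base. A second GTCT lay on the strand of the gene, 68 to 65 bases before its start. GTCT was also found in Id2, Smad6 and Smad9. TGACG is found on either strand in 17.8% and GTCT in 82.9% of all promoters of the table. The stretch with the 2 overlapping elements is shown with them in capitals, as CGTCA and AGAC on the strand of the gene.
Id3, chr4:136143639-136143668, forward strand: ccgctgtcctcggCGTCAGACcagcctaag
TGACG was found in 1 other member, Id4. CACGTG, the E-box form that the glucose-responsive factor ChREBP is known to use in pairs, was found in none of the 6 and in 6.02% of all promoters. A match is a description of the sequence and not of binding.

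The members were not alike in their pattern over the 17 samples. Correlations of log2 CPM are given here as a description, over samples that share glucose concentration and genotype within a group. Among the 28 pairs of members, the highest Pearson r was 0.57 (Id3 and Smad6), and Id1 and Id3 had an r of 0.50, which was 0.02 after the group means were subtracted. Id2 and Id3 had an r of 0.38, or 0.57 within groups. Among genes of at least 5 CPM, those most like Id3 were Tent5c (r = 0.93), Tufm (0.92) and Plekhg6 (0.92). Those most like Id2 were Kansl1 (0.87), Trmt1l (0.85) and Gm7160 (0.84), and those most like Bmpr1a were Mtrex, Ptcd3 and Pds5a (0.89 each). Id1 averaged 4.25 CPM, below the 5 CPM set for this search, and its nearest genes were looked up after its values had been seen. They were Gorasp2 (r = 0.92), Spon2 (0.90) and Pold2 (0.89), and the values within groups were 0.88, 0.90 and 0.84.

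The rest of the pathway was described with 7 lists of 78 genes in all, of which 59 were tested. In control cells 4 of the 59 rose with glucose and 3 fell, or 7 called against 13.8% of all genes. Pcbp2 βKO cells had 5 that rose and 5 that fell, against 23.8% of all genes. The median log2 fold change of the tested list genes was -0.08 and -0.27, against 0.04 and 0.01 over all genes. The interaction called none of the 59 by edgeR.

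Of the ligands, 12 of 22 were tested and 2 rose in both genotypes. Inha, the inhibin alpha subunit, went from 5.65 ± 2.73 to 14.1 ± 4.65 CPM in control cells and from 6.48 ± 2.42 to 21.2 ± 5.58 CPM in Pcbp2 βKO cells (log2 fold change 1.32 and 1.71, edgeR adjusted p = 0.0209 and 0.000371). Tgfb3, a TGF-β ligand, went from 0.471 ± 0.0445 to 2.19 ± 1.05 CPM and from 0.412 ± 0.160 to 1.77 ± 1.04 CPM (2.21 and 2.10, adjusted p = 0.0132 and 0.00190). In the high-glucose libraries that stood apart, Tgfb3 was at 0.675 CPM (control) and at 0.603 and 0.822 CPM (Pcbp2 βKO). The other high-glucose samples were at 1.95 to 3.11 CPM, and Tgfb3 was called with and without the apart libraries. No BMP ligand was called with glucose. Bmp3 averaged 2.31 and 5.07 CPM in low and high glucose in control cells and 4.41 and 4.46 CPM in Pcbp2 βKO cells (log2 fold change 1.14 and 0.02, edgeR adjusted p = 0.0612 and 0.977). Bmp2 was at 0.441 ± 0.637 CPM in low and 2.06 ± 3.19 CPM in high glucose in control cells (edgeR adjusted p = 0.451), Bmp6 and Bmp7 averaged below 1 CPM in each group, and Bmp4, Gdf2 and Bmp10 were below the filter.

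Of the 15 further receptors and co-receptors, 13 were tested and 2 fell with glucose in both genotypes. These were Tgfbr1, the type I receptor for TGF-β (85.4 ± 1.60 to 49.7 ± 17.6 CPM in control cells), and Tgfbr3, the co-receptor betaglycan (26.1 ± 6.27 to 7.77 ± 5.32 CPM). Their log2 fold changes were -0.78 and -1.74 in control cells and -0.77 and -1.32 in Pcbp2 βKO cells (edgeR adjusted p between 0.00349 and 0.0209). Acvr1c, the type I receptor ALK7, was called lower in Pcbp2 βKO cells in low glucose (36.0 ± 19.0 to 12.8 ± 3.41 CPM, log2 fold change -1.50, edgeR adjusted p = 0.0305). This call was lost when control replicate 1 or 3 or Pcbp2 βKO replicate 3, 4 or 5 was left out (adjusted p = 0.0787, 0.275, 0.0645, 0.0557 and 0.0668). The partners of Bmpr1a at the membrane were not called, with Bmpr2 and Acvr1 at log2 fold changes with glucose of 0.22 and -0.02 in control cells and -0.40 and -0.18 in Pcbp2 βKO cells.

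Of the 5 signalling Smads listed, all were tested. Smad4, the common partner, fell with glucose from 12.9 ± 1.12 to 8.14 ± 1.30 CPM in control cells and from 13.2 ± 2.31 to 8.60 ± 1.53 CPM in Pcbp2 βKO cells (log2 fold change -0.66 and -0.61, edgeR adjusted p = 0.0276 and 0.00763). Smad2, of the TGF-β and activin branch, fell in Pcbp2 βKO cells (-0.70, adjusted p = 0.00131), and in control cells its change of -0.58 (adjusted p = 0.0283) was just under the fold threshold. Smad3, of the same branch, was not called (-0.55 and -0.82, adjusted p = 0.519 and 0.159). Smad1 and Smad5, of the BMP branch, were not called either, with -0.10 and -0.18 in control cells and 0.09 and -0.33 in Pcbp2 βKO cells (adjusted p of 0.0907 or more).

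Among 17 extracellular antagonists, 11 were tested. With glucose, Twsg1, which binds BMPs together with chordin, rose in control cells (387 ± 69.7 to 720 ± 173 CPM, log2 fold change 0.90, adjusted p = 0.0103), and had 0.29 in Pcbp2 βKO cells (adjusted p = 0.240). In Pcbp2 βKO cells Chrd, which encodes chordin, and Fstl3, an activin-binding protein, rose (1.13 and 1.22, adjusted p = 0.00422 and 0.00201), and they had 0.65 and 0.87 in control cells (adjusted p = 0.201 and 0.0762). The interaction called none of these 3. Of the 7 intracellular regulators, Tgif1, a co-repressor of Smads, fell in Pcbp2 βKO cells (-1.31, adjusted p = 0.0283), and the ubiquitin ligases Smurf1 and Smurf2 were not called.

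Of 6 other targets of the pathway, 5 were tested and none was called in any comparison by edgeR. Atoh8, which like the Id genes follows BMP signals, averaged 1.03, 0.972, 2.94 and 1.83 CPM in control low, control high, Pcbp2 βKO low and Pcbp2 βKO high glucose, and Hey1 stayed below 0.4 CPM on average in each group. Among the 6 basic helix-loop-helix partners, Neurod1, a β cell factor that activates the insulin gene with E proteins, rose from 110 ± 18.9 to 191 ± 13.2 CPM in control and from 117 ± 10.4 to 219 ± 35.8 CPM in Pcbp2 βKO cells (log2 fold change 0.80 and 0.91, edgeR adjusted p = 0.00259 and 4.5e-05). The E protein genes Tcf3, Tcf4 and Tcf12 had log2 fold changes between -0.22 and -0.01 with glucose and were not called.

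These list calls depended on the scaling and, in control cells, on single samples. None of the 4 and 5 rises was called on the log2(TPM + 0.1) scale, where all 3 and 5 falls were, and Neurod1 changed by 0.02 and -0.12 there (limma adjusted p = 0.936 and 0.480). In control cells, 5 of the 7 glucose calls were lost without replicate 1 and 6 without replicate 2 in low glucose (Inha, Smad4, Tgfb3, Tgfbr1 and Tgfbr3 in both, and Twsg1 in the second), with edgeR adjusted p up to 0.109 and 0.112. In high glucose 2 calls were lost without each of replicates 1, 2 and 3, with adjusted p up to 0.0753. In Pcbp2 βKO cells, Tgif1 or Smad4 was lost without replicate 1 or 5 in low glucose or replicate 2, 3 or 5 in high glucose, Tgif1 at adjusted p up to 0.0725 and Smad4 at fold changes under the threshold.

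**Figure D5:**
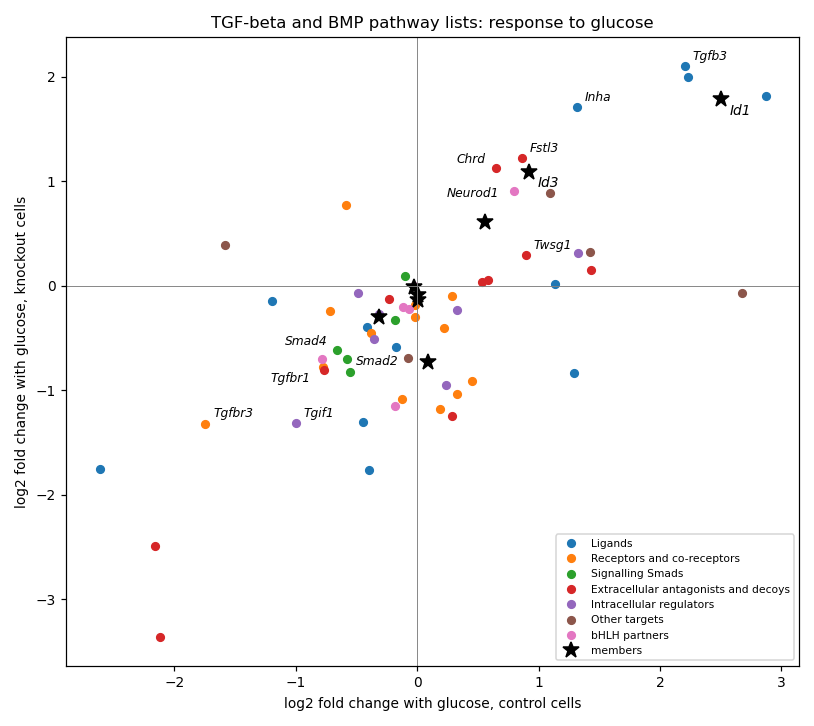
Log2 fold change between 16.7 and 2.8 mM glucose in control cells (horizontal axis) against that in Pcbp2 βKO cells (vertical axis) for the 59 tested genes of the 7 pathway lists (points, coloured by list) and the 8 members (stars), with names for the members Id1 and Id3 and for list genes called in either comparison. Inha and Tgfb3 lie at the upper right beside Id1, and Tgfbr1, Tgfbr3, Smad2 and Smad4 at the lower left.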

How the data were processed

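RNA was sequenced from 17 samples of sorted tdTomato+ β cells. Per the labels and the study's methods, libraries were made with an ultra low input kit from polyA RNA, and the authors pseudoaligned reads to the GRCm39 (mm39) transcriptome with kallisto. The authors deposited the estimated counts of 142376 transcripts in each sample, not normalized between samples, and their TPM, scaled by transcript length and to one total per sample.

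Estimated counts were summed per gene and rounded. Libraries were scaled by TMM in edgeR 4.0.16 (factors 0.752 to 1.29), and genes kept by its expression filter over the 4 groups. One fit of 4 group means gave 5 contrasts by the quasi-likelihood test, with Benjamini-Hochberg adjustment over all genes tested. The authors' design held a batch term whose levels were not given in the sources used here, so no batch entered. limma 3.58.1 was used on log2(TPM + 0.1) and log2(TPM + 1), and DESeq2 1.42.0 on the counts. The main edgeR test, DESeq2 and limma on log2(TPM + 0.1) were also run on simulated counts in which 200 genes had known changes. The fits with a block and limma on log2(TPM + 1) were not. The simulated rises and falls were equal in number, without the shift of the median gene seen here on total counts and TPM.

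The members and lists were chosen with earlier results of these data known. Named genes were the members, Pcbp2, every pathway-list gene called in a contrast, and, for members of at least 5 CPM, the 3 genes with the highest Pearson r of log2 CPM, with a few list genes that were not called named after their values were seen. One of the pathway-list results is not reported here. Marker lists covered β, alpha, delta, PP, acinar, ductal, endothelial, stellate and macrophage cells and proliferation. Delta, PP, acinar, ductal and macrophage markers summed to 147 to 1316, 224 to 5112, 1.62 to 23.6, 24.1 to 820 and 20.5 to 103 CPM. In alternative fits, but not in the main fit, replicate numbers of control samples in low and high glucose were taken as pairs. The reason was that deviations from group means correlated at 0.199, 0.123 and 0.258, with no comparison to samples of unlike number given. In the other comparisons at least 1 pair was at or below 0.1. No 2 libraries of a group agreed within sampling noise.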

Additional observations from a re-analysis of the deposited data

Results flagged for a closer look

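In 24 groups of 4 or 5 samples of a member, 5 held a sample far from the others on the log2 CPM scale, where chance gives about 1 in 20. Id2 in control replicate 4 in high glucose (123 CPM) had a gap to the nearest sample of 0.981 of the group's range, and this was 1 of the 3 libraries that stood apart. Id2 in Pcbp2 βKO replicate 5 in low glucose (162 CPM) had a gap of 0.912. Smad7 in control replicate 2 in high glucose (2.44 CPM) had a gap of 0.848. Smad6 in Pcbp2 βKO replicate 2 in low glucose (0.0117 CPM) and in replicate 4 in high glucose (0.0536 CPM) had gaps of 0.84 and 0.797, on 1 and 4 estimated counts. The Id1 values near 1 CPM in high glucose were not among them, since 2 of the 5 Pcbp2 βKO samples lay together.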

How the results depend on the processing

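Of 599 log2 fold changes of members under alternatives, 509 kept their direction and side of the threshold, 8 lost a call, 26 gained one and 56 changed sign, none of them called. The cause was not tested. In control cells 2 members were called higher with glucose without the filter, with DESeq2, with the replicate block (also in control samples alone) and without the 3 apart libraries. With single samples left out, 0 to 2 were called, all higher. On both TPM scales, 2 were called lower and 0 higher, and on total counts 1 was called, lower. In Pcbp2 βKO cells 4 members were called lower on log2(TPM + 0.1) and 2 lower on log2(TPM + 1), and on total counts 1 higher and 1 lower. There 2 were called higher without the filter, without the apart libraries and with Pcbp2 βKO low-glucose samples 1 and 3 alone. With single samples left out, 1 to 2 were called, all higher. In high glucose the knockout called 1 with DESeq2 or the replicate block.

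Over all genes, the control glucose comparison called 3153, against 4837 on total counts, 8902 and 6975 on the TPM scales (+ 0.1 and + 1), 4775 with the block, 5670 with the block in control samples alone, 4898 without the apart libraries and 1382 to 4480 with single samples left out. The Pcbp2 βKO glucose comparison called 5431, against 12449 and 8831 on the TPM scales and 3188 with samples 1 and 3 alone. The knockout called 389 in high glucose, against 721 (DESeq2), 190 (TPM + 1), 587 (without the apart libraries) and 213 to 652 (single samples left out). In low glucose it called 464, against 835 (DESeq2), 283 (TPM + 1), 150 (samples 1 and 3 alone) and 242 to 492. The interaction called 1, against 15 without the filter, 32 with DESeq2, 3 and 0 on the TPM scales, 13 with the block, 2 without the apart libraries, 0 with samples 1 and 3 alone and 0 to 2 with single samples left out. By mean level, 6 members were higher in high glucose in control cells by CPM and 3 by TPM.

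Signs changed as follows. With glucose in control cells, total counts gave Id4 -0.31, Smad7 -0.39 and Smad9 -0.33, log2(TPM + 0.1) gave -0.48, -0.27 and -0.52, and log2(TPM + 1) gave -0.14, -0.11 and -0.12. Without the filter Smad7 was -0.025 and Smad9 -0.013, with the replicate block -0.056 and -0.17, and with the block in control samples alone Smad9 was -0.37. Without the apart libraries Smad6 was -0.33 and Smad9 -0.42. For the knockout in high glucose, length-scaled counts gave Smad6 -0.59 and Bmpr1a -0.086, log2(TPM + 0.1) gave Smad6 -0.12, Smad7 -0.015 and Bmpr1a -0.17, log2(TPM + 1) gave Smad6 -0.025 and Bmpr1a -0.12, and Smad7 was -0.37 without the apart libraries. In low glucose Id1 was -0.24 with samples 1 and 3 alone, Smad7 -0.12 on length-scaled counts and Bmpr1a -0.0026 with the block. With glucose in Pcbp2 βKO cells, samples 1 and 3 alone gave Id2 0.15 and Smad7 0.093, the TPM scales gave Smad6 -0.10 and -0.015, and length-scaled counts gave Smad7 0.62. With single samples left out, the control glucose values ran from -0.24 to 0.041 for Id2, -0.59 to 0.57 for Id4, -0.29 to 2.09 for Smad6, -0.47 to 0.22 for Smad7 and -0.38 to 0.21 for Smad9, the Pcbp2 βKO glucose values from -0.18 to 0.14 for Id2 and -0.35 to 0.034 for Smad7, and the knockout values in high glucose from -0.14 to 0.60 for Smad7 and -0.037 to 0.15 for Bmpr1a.

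Depth limits Smad6, at 0 to 16 counts per sample. The replicate numbers were taken to pair samples in the control glucose comparison only, on weak correlations. The block, fitted over all samples, changed 2 calls of members. These were Id1 with glucose in control cells (2.63, edgeR adjusted p = 0.0417) and Id4 for the knockout in high glucose (-1.44, edgeR adjusted p = 0.0439).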
